A study of Mus musculus with 6 samples.

Results

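The genes described are 10 SR protein genes, Srsf1, Srsf2, Srsf3, Srsf4, Srsf5, Srsf6, Srsf7, Srsf9, Srsf10 and Srsf11. They were found by matching the Ensembl identifiers of the count tables to GENCODE M21 symbols, and all 10 were among the 41388 genes listed. RNA was sequenced from primary joint chondrocytes of male B6/129 mice aged 21 days, 3 Postn-/- and 3 wild-type (wt). The cells had been taken from the cartilage of the femoral head and kept in culture, untreated, for 2 days. The Postn-/- mice were homozygous for a germline mutation of periostin, a secreted matrix protein, in every cell (allele Postn tm1Jmol), and the wt mice came from the same breeding. The comparison asks which transcripts differ between the genotypes at baseline. Because whole cultures were sequenced, less RNA per cell and fewer cells of a kind cannot be told apart.

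SR proteins are splicing factors with an RNA recognition motif and a tail rich in arginine and serine. They bind enhancer sequences in exons and recruit the U1 particle and the U2AF factor to the neighbouring splice sites, and several of them accompany spliced mRNA to the cytoplasm. Their tails are phosphorylated by the SRPK and CLK kinases, and the importin Tnpo3 carries them into the nucleus. Many SR protein genes also limit their own output by including a premature stop exon, so that part of their RNA is removed by nonsense-mediated decay. Srsf10 differs from the classical members in that it can repress splicing when it is dephosphorylated.

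Total counts were between 20587640 and 26572260 per library, and 3 counts corresponded to 0.113 to 0.146 CPM, the count scaled to a fixed library total. Levels are CPM after TMM normalization, a scaling of each library for size and composition. A fold change is given as log2 of Postn-/- over wt with its SE (standard error), and p is unadjusted unless it is called adjusted. The 10 chondrocyte markers together were at 29768 to 46717 CPM and each of them passed the filter on low counts. The 5 erythroid markers together stayed at or below 0.524 CPM, and Hba-a2 was at 0. Endothelial markers summed to at most 9.34 CPM, with Cdh5 and Tek below 1 CPM in at least 5 samples, macrophage and osteoclast markers to at most 70.8 CPM, skeletal muscle markers to at most 18.1 CPM, osteoblast markers to at most 1135 CPM and fibroblast markers to at most 4196 CPM. Postn itself was counted with 116, 105 and 119 reads in Postn-/- and with 263, 228 and 144 reads in wt. It was lower in each Postn-/- library than in each wt library, yet not at 0, and gene counts do not show whether those reads lie in the mutated part.

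These 4 stretches of coding sequence are shown because they bear on how fully the family could be counted. The authors kept only reads of 50 bases that aligned to a single place, and a read that falls wholly inside such a stretch fits a pseudogene as well. Coordinates are on GRCm38, sequences are those of GENCODE M21 transcripts and run 5′ to 3′ on the plus strand, and capitals mark arginine codons and serine codons that stand side by side.
Srsf10 shared with Gm5446, chr4:135863865-135864023: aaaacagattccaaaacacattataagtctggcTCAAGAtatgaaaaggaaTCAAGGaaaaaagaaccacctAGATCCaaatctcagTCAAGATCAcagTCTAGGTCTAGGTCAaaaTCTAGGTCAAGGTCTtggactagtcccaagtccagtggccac
Srsf10 shared with Gm9134, chr4:135863040-135863202: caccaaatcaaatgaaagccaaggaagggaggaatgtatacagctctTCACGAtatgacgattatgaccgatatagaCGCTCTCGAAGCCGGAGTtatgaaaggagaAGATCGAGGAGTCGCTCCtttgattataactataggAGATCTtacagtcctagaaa
Srsf5 shared with Gm12966, chr12:80949831-80949975: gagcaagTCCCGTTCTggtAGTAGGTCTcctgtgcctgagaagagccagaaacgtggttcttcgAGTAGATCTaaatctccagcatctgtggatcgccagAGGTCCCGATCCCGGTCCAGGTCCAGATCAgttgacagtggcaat
Srsf3 shared with Gm9761, chr17:29036243-29036448: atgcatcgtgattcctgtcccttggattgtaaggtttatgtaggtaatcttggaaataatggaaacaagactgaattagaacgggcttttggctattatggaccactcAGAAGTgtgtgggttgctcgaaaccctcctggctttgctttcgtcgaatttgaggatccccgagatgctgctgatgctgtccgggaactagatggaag

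The first of these Srsf10 stretches is 159 bases long and was identical, base for base, to the processed pseudogene Gm5446 on chromosome 13 (19995021 to 19995804). It leaves 110 start positions at which a read fits both places, and 19 of its 53 whole codons lie in the marked runs, which belong to the arginine and serine tail. The stretch of 163 bases shared with the pseudogene Gm9134 on chromosome 12 (113381011 to 113381561) adds 114 such positions, and 16 of its 53 whole codons lie in marked runs. The stretch of Srsf5, with 145 bases and 19 of 48 whole codons in marked runs, was identical to Gm12966 on chromosome 4 (129899093 to 129899902). The longest stretch, 206 bases of Srsf3 with 157 such positions, was identical to Gm9761 on chromosome 3 (116560935 to 116561426), and only 2 of its 68 whole codons lie in a marked run. Within it, 124 bases were also identical to Gm12355. Srsf7 shared a stretch of 64 bases with Gm18821, which is not shown. Over all transcripts, 10.3% of the 50-base words of Srsf10 occur in another gene, against 10.1% for Srsf5, 10.04% for Srsf3 and 0.556% for Srsf7. The shares were larger for Srsf4 (39.5%) and Srsf2 (20.7%), whose exons overlap other genes, and none of those of Srsf6 and Srsf9 do. Few reads were assigned to the copies themselves: Gm5446 had 1 to 6 reads per library and Gm12966 had 17 to 36, where Srsf10 had 1451 to 2683 and Srsf5 had 3229 to 5711. Gm9761 had 3 to 12 reads, where Srsf3 had 1792 to 3146. The share of Srsf10, Srsf5 or Srsf3 reads that was lost by keeping unique alignments was not tested.

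Srsf10 lies on chromosome 4 of GRCm38 (135855747 to 135869908, plus strand) and was the member with the smallest p-value. It was at 78.2, 69.4 and 69.1 CPM in the Postn-/- libraries and at 103, 86.2 and 99.2 CPM in the wt libraries. The genotypes did not overlap, since the highest Postn-/- library was below the lowest wt library. The means were 72.2 ± 5.13 and 96.2 ± 8.86 CPM (SD, n = 3 each), which corresponds to a level 24.9% lower in Postn-/- (log2 fold change of −0.41, SE 0.11, 95% confidence interval −0.67 to −0.16). The unadjusted p of edgeR's quasi-likelihood test was 0.00599 and the Benjamini-Hochberg adjusted p over 14533 genes was 0.717, so Srsf10 did not pass the adjusted threshold of 0.05. Leaving out any 1 library kept the log2 fold change between −0.49 and −0.36, with unadjusted p between 0.00321 and 0.0266 in edgeR. Its libraries were close together within each genotype, with a coefficient of variation of 7.11% in Postn-/- and 9.21% in wt. The authors took Srsf10 as a gene with similar expression in both genotypes and ran real-time PCR for it in an independent cohort. They report that the PCR matched their RNA-seq data, and the PCR values were not analysed here.

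**Figure D1:**
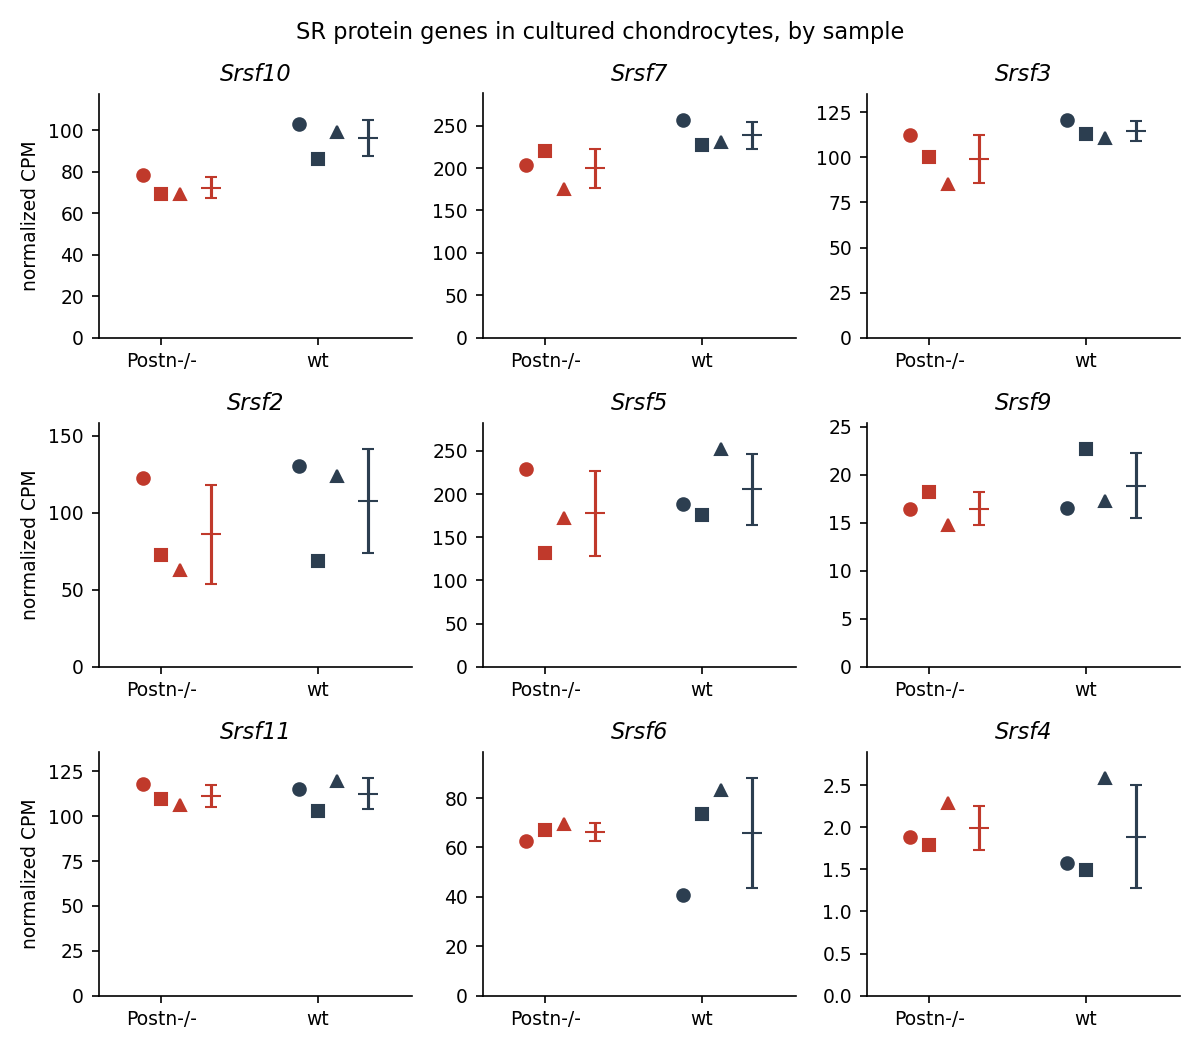
TMM-normalized CPM (vertical axes, from 0) of the 9 SR protein genes that passed the filter, with 1 point per library (circle, square and triangle are replicates 1, 2 and 3), Postn-/- in red and wt in dark blue; the bars beside the points are mean ± SD, n = 3. Srsf10 and Srsf7 are the 2 genes with every Postn-/- point below every wt point, while the libraries of Srsf2, Srsf5 and Srsf6 spread widely within a genotype.

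Srsf7, which has a zinc knuckle beside its RNA recognition motif and acts as an adaptor for the export receptor Nxf1, was the other member without overlap. Its libraries stood at 204, 220.0 and 175 CPM in Postn-/-, against 257, 228 and 231 CPM in wt. The highest Postn-/- library and the lowest wt library were close together, and the log2 fold change was −0.26 (SE 0.12, 95% confidence interval −0.53 to 0.02, unadjusted p = 0.0633 and adjusted p = 0.717 in edgeR). Without Postn-/- replicate 2 the value of Srsf7 was −0.33, with unadjusted p = 0.0358 and an adjusted p of 0.628 in edgeR, and without Postn-/- replicate 3 it was −0.17 (unadjusted p = 0.217 in edgeR). Srsf3, the smallest SR protein and likewise an export adaptor, was at 112, 100.1 and 85.4 CPM in Postn-/-, against 121, 113 and 110.5 CPM in wt. Only Postn-/- replicate 1 lay within the range of wt, and the log2 fold change was −0.21 (SE 0.12, unadjusted p = 0.123 in edgeR). Without Postn-/- replicate 1 it was −0.31, with unadjusted p = 0.0436 in edgeR and an adjusted p of 0.772, and without Postn-/- replicate 3 it was −0.11 (unadjusted p = 0.380 in edgeR).

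Srsf2, a member that stays in the nucleus and sits in nuclear speckles, varied most between libraries among the well counted genes. It was at 123, 72.4 and 62.7 CPM in Postn-/-, against 130.2, 68.7 and 124 CPM in wt. A high and a low level occurred in both genotypes, with 1 of 3 Postn-/- libraries and 2 of 3 wt libraries above 100 CPM, so the log2 fold change of −0.32 had an interval from −1.04 to 0.39 (SE 0.31, unadjusted p = 0.323 in edgeR). Without Postn-/- replicate 1 the log2 fold change of Srsf2 was −0.67, with unadjusted p = 0.0462 and an adjusted p of 0.772 in the edgeR fit. It was −0.14 without Postn-/- replicate 3, −0.16 without wt replicate 1, −0.22 without Postn-/- replicate 2, −0.21 without wt replicate 3 and −0.56 without wt replicate 2, with unadjusted p between 0.0749 and 0.671 in edgeR. Exons of Srsf2 overlap those of Mettl23 and Mfsd11 on the opposite strand over 748 of 2958 bases (25.3%), and the sources used here do not state if strand was used in counting.

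Srsf5 and Srsf6 each carry a pair of RNA recognition motifs. Srsf5 was at 229, 131 and 173 CPM in Postn-/-, against 188, 175 and 253 CPM in wt, and the ranges overlapped, although 2 of the 3 Postn-/- libraries lay below every wt library. Its log2 fold change was −0.21 (95% confidence interval −0.72 to 0.30, unadjusted p = 0.376 in edgeR). It was −0.43 without Postn-/- replicate 1 and −0.03 without Postn-/- replicate 2 or without wt replicate 3. Srsf6 was at 62.4, 67.1 and 69.6 CPM in Postn-/-, against 40.7, 73.7 and 83.3 CPM in wt. The 3 Postn-/- libraries of Srsf6 were close together and lay within the wider range of wt, with wt replicate 1 lowest of the 6, and the log2 fold change was 0.01 (95% confidence interval −0.54 to 0.56, unadjusted p = 0.962 in edgeR).

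Srsf9, a short member of the family, was at 16.4, 18.2 and 14.7 CPM in Postn-/-, against 16.5, 22.7 and 17.3 CPM in wt. Its ranges overlapped, and the log2 fold change was −0.19 (95% confidence interval −0.58 to 0.19, unadjusted p = 0.273 in edgeR). Without wt replicate 2 it was −0.038 (unadjusted p = 0.812 in edgeR). Srsf11, an SR protein that binds U2AF, was among the steadiest members, at 118, 109.6 and 106 CPM in Postn-/-, against 115, 103 and 119.8 CPM in wt. It had the narrowest interval of the 9 genes, from −0.26 to 0.22 around a log2 fold change of −0.02 (SE 0.10, unadjusted p = 0.872 in edgeR). A difference in Srsf11 as large as the fitted value of Srsf10 lay outside that interval, although the difference between these 2 genes was not tested.

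Srsf4, which has the longest arginine and serine tail of the family, was counted with only 33 to 54 reads per library. It was at 1.89, 1.79 and 2.29 CPM in Postn-/-, against 1.58, 1.49 and 2.59 CPM in wt. The ranges overlapped, and the interval of its log2 fold change of 0.08 ran from −0.59 to 0.75 (unadjusted p = 0.792 in edgeR). Over 1532 of its 3561 exon bases (43.0%) Srsf4 overlaps Gm12992 on the opposite strand, to which 18 to 30 reads were assigned, and reads in an overlap are ambiguous where strand is not used. The level of Srsf4 is therefore a lower limit if counting ignored strand, which the sources used here do not state.

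**Figure D2:**
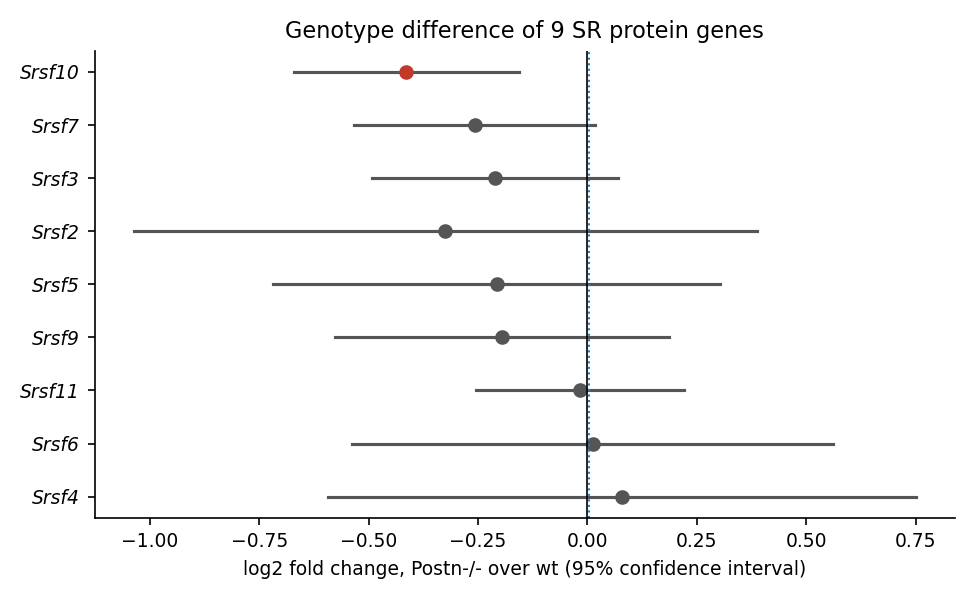
Log2 fold change, Postn-/- over wt (horizontal axis), of the 9 SR protein genes tested, with lines for the 95% confidence interval from the edgeR fit and the point in red where p was at or below 0.05; the dotted line is the median of all genes tested. Srsf10 is the only gene of the 9 whose interval, −0.67 to −0.16, does not include 0.

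Of the 10 members, 9 passed the filter of more than 1 CPM in at least 2 libraries. Among these 9, 7 had a log2 fold change below 0, and their median was −0.21, where the median of the 14533 genes tested was 0.0042. The members' median was −0.12 without Postn-/- replicate 3 and between −0.27 and −0.20 without any other 1 library, with 6 to 8 of the 9 below 0. In edgeR 1 of the 9, Srsf10, had p at or below 0.05 and was lower in Postn-/-, where the background of all genes tested was 2.35%. Non-overlapping genotypes with Postn-/- lower were found for 2 of the 9, Srsf10 and Srsf7, and for 6.57% of all genes tested. No member had an adjusted p at or below 0.05, nor did any in DESeq2's Wald test or in limma's voomWithQualityWeights, in which 1 and 2 members had p at or below 0.05, all lower in Postn-/-. The background of adjusted calls in edgeR was 0.0138%. The background of lower calls was 2.7% of all genes tested in DESeq2's Wald test, 3.78% in voomWithQualityWeights and 6.31% when it was run with surrogate variables, and that of higher calls was 3.3%, 5.42% and 7.43%. With 1 library left out, edgeR called lower 2.02%, 3.81% and 0.849% of all genes without Postn-/- replicate 1, 2 and 3, and 1.96%, 3.45% and 2.31% without wt replicate 1, 2 and 3. Higher calls made up 4.0%, 3.92% and 2.13% without the Postn-/- libraries in that order, and 3.49%, 5.26% and 3.82% without the wt libraries. Non-overlapping genotypes in either direction were found for 13.6% of all genes with every library in, for 25.9%, 26.7% and 19.3% without Postn-/- replicate 1, 2 and 3, and for 22.3%, 27.2% and 24.6% without wt replicate 1, 2 and 3. The number of members is too small for these shares to be read as more than a description.

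Srsf1, the founding member of the family, was counted with 3, 1 and 6 reads in Postn-/- and with 0 reads in every wt library, and did not pass the filter. These counts cannot be taken as its level. Srsf1 lies on chromosome 11 (88047373 to 88053755, plus strand), in a region for which the gene table also lists a second copy on a patch scaffold of the assembly, with 2 of 4 exons at the same coordinates and 0 reads in all 6 libraries. The 4 neighbours that also have a patch copy, Vezf1, Cuedc1, Mrps23 and Ccdc182, had at most 2, 7, 4 and 0 reads. Of the genes without a patch copy around them, Dynll2 had 335 to 591 reads, Msi2 1753 to 2907 and Scpep1 21101 to 27590, while the odorant receptor genes Olfr463 and Olfr464 had at most 3 and 7 reads. A read that matches both copies is not unique under the counting the authors used, and no genotype difference is given for Srsf1.

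**Figure D3:**
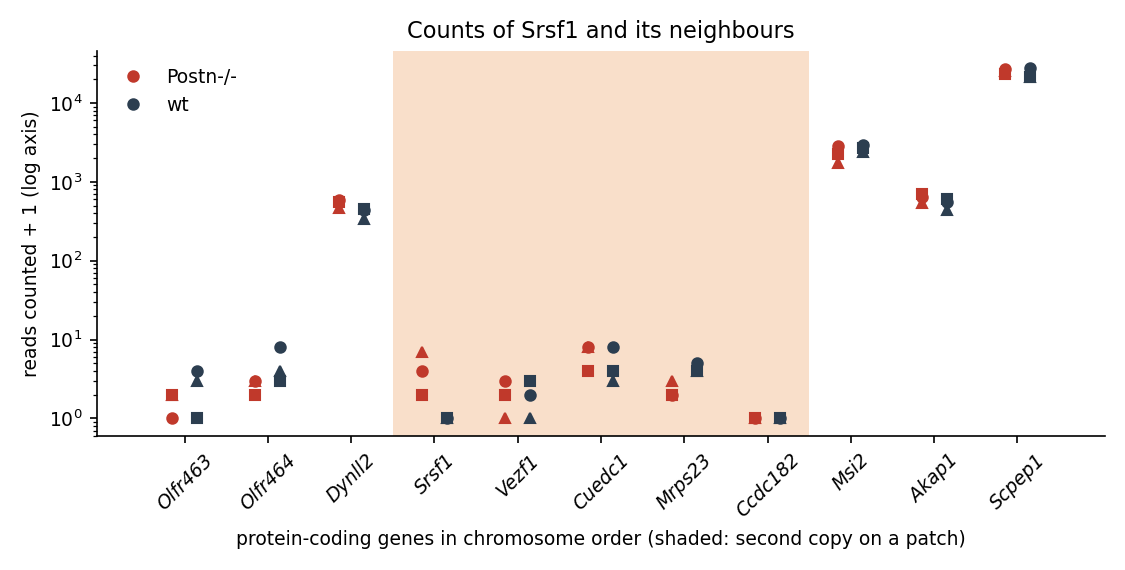
Reads counted plus 1 (vertical log axis) for Srsf1 and the protein-coding genes around it in chromosome order, with 1 point per library, Postn-/- in red and wt in dark blue; shading marks genes with a second copy on a patch scaffold. The 5 shaded genes lie at 7 reads or fewer in every library, and of the genes outside, Dynll2, Msi2, Akap1 and Scpep1 lie at 335 reads or more and the odorant receptor genes Olfr463 and Olfr464 at 7 or fewer.

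Levels of different genes were compared per kilobase of exon (RPKM). Srsf1 is left out of this order, since its counts cannot be taken as its level. Srsf7 was highest at 96.2 ± 12.1 RPKM (SD over the 6 libraries), and its lowest library, at 76.9 RPKM, was above the highest of Srsf5, at 63.3 RPKM. Then followed Srsf5 at 48.0 ± 10.9, Srsf2 at 32.7 ± 10.8, Srsf3 at 21.0 ± 2.45, Srsf6 at 17.4 ± 3.77, Srsf11 at 15.7 ± 0.95, Srsf9 at 13.0 ± 2.01 and Srsf10 at 12.0 ± 2.09 RPKM. From Srsf5 to Srsf10 the range of each gene over the libraries overlapped with that of the next in this order. Within the libraries, Srsf7 was above Srsf5, Srsf5 above Srsf2 and Srsf2 above Srsf3 in 6 of 6, Srsf11 was above Srsf9 in 5 of 6, and Srsf3 above Srsf6, Srsf6 above Srsf11 and Srsf9 above Srsf10 in 4 of 6 each. Srsf4 followed at 0.54 ± 0.12 RPKM, below every library of Srsf10. Over the exon bases that no other gene covers, a length chosen after seeing the data, Srsf2 was at 43.8 and Srsf4 at 0.95 RPKM, and their places in the order stayed as they were.

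As a share of the summed RPKM of the 10 genes, Srsf7 made up 33.5% to 41.9% in each library and Srsf5 14.3% to 21.5%. Srsf1 entered this sum with at most 0.024%, which is not its level, so the shares describe the other members only. Srsf10 made up 4.18%, 4.30% and 4.64% in the Postn-/- libraries and 5.23%, 4.88% and 4.81% in the wt libraries. Thus Srsf10 was lower in Postn-/- also relative to the other SR protein genes that could be counted, with no overlap. The share of Srsf11 was instead higher in Postn-/-, at 6.18%, 6.67% and 7.01% against 5.74%, 5.71% and 5.70% in wt. Shares of 1 sum are not independent, and the 2 patterns are a description. Relative to the median log2 CPM of the other 8 tested members, however, Srsf10 stood at −0.56, −0.29 and −0.16 in Postn-/-, against −0.20, −0.01 and −0.21 in wt, and these ranges overlapped. The summed RPKM itself, which lacks the true level of Srsf1, was 267, 230.4 and 213 in Postn-/- and 282, 252 and 295 in wt.

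**Figure D4:**
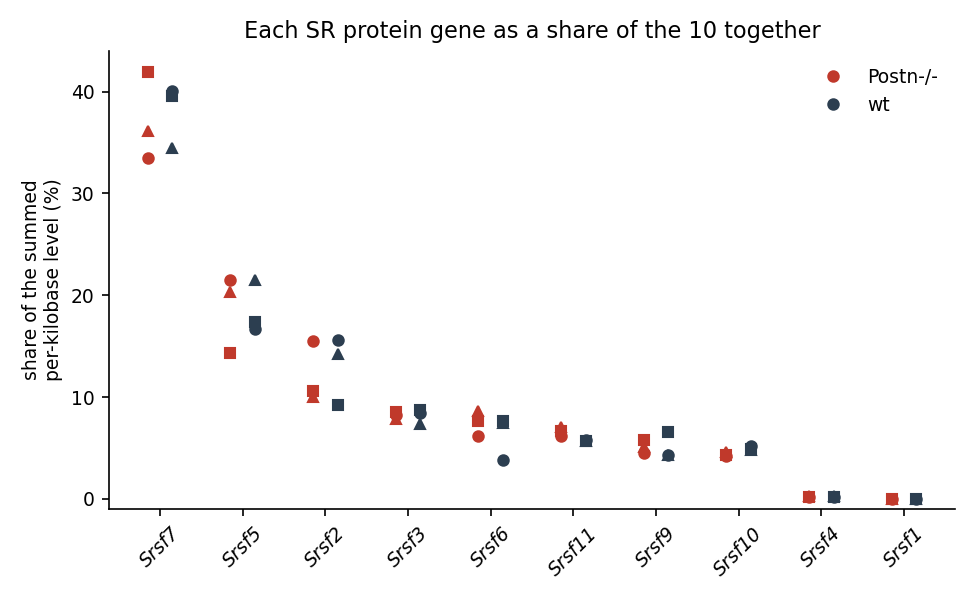
Share of each SR protein gene in the summed per-kilobase level of the 10 genes, in percent (vertical axis), with 1 point per library, Postn-/- in red and wt in dark blue, ordered by mean level. Srsf7 holds 33.5% to 41.9% in each library, and the points of Srsf10 lie between 4.18% and 5.23%. Srsf1 enters with at most 0.024%, which is not its level, so the shares describe the other members.

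Over the 6 libraries the members did not move as a block. Of the 36 pairs among the 9 tested genes, 24 had a positive Pearson correlation of log2 CPM, with a median r of 0.36. After the genotype means were removed, the largest correlations of Srsf10 were with Srsf2 (r = 0.98) and Srsf11 (r = 0.92), and Srsf6 and Srsf9 had r = −0.51 and −0.67 with it. All these values describe 6 libraries that share depth and normalization. Among the 14532 other genes tested, the pattern of Srsf10 was most like that of Selenoi, a phospholipid synthesis enzyme (r = 0.993), followed by Eps15l1 (0.986), Slc29a3 (0.984), Tubgcp6 (0.983) and Mthfd1 (0.981). Selenoi was at 77.5, 72.2 and 70.2 CPM in Postn-/-, against 102, 83.4 and 95.8 CPM in wt. Of the other members, Srsf7 came nearest at rank 636 (r = 0.80), Srsf3 at rank 689 (0.79) and Srsf2 at rank 1185 (0.72), and 649 genes had an r above 0.8.

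The wider set of splicing factors was described from lists of SR-related proteins and of the partners of SR proteins. Of 26 SR-related proteins tested, 18 had a log2 fold change below 0 with a median of −0.15, and 3 had p at or below 0.05 in edgeR, all 3 lower in Postn-/- (background 2.35%). DESeq2's Wald test gave 3 lower calls (background 2.7%) and voomWithQualityWeights 6 (3.78%), or 5 with surrogate variables (6.31%). In edgeR there were no lower calls without Postn-/- replicate 2, where 1 gene was called higher, and none without Postn-/- replicate 3, against 1 lower call without wt replicate 1 and 5 without wt replicate 2. Srrm1, a coactivator that bridges enhancer-bound SR proteins and the spliceosome, was at 131, 106 and 111 CPM in Postn-/-, against 148, 139 and 149.6 CPM in wt (log2 fold change of −0.33, unadjusted p = 0.0191 in edgeR). Tra2b, an activator of exon inclusion with its own arginine and serine domains, was at 59.6, 60.6 and 58.6 CPM in Postn-/-, against 79.1, 67.7 and 69.8 CPM in wt (log2 fold change of −0.28, unadjusted p = 0.0251 in edgeR). Bclaf1 had a log2 fold change of −0.28 (unadjusted p = 0.0356 in edgeR). In each of these 3 genes the genotypes did not overlap, and the adjusted p was 0.717. Srsf12, the closest relative of Srsf10, was low at 2.92 to 6.18 CPM and its genotypes overlapped (log2 fold change of −0.27, 95% confidence interval −0.98 to 0.44, unadjusted p = 0.404 in edgeR).

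Among the SR protein kinases and the nuclear importer, Srpk3 did not pass the filter and all 9 tested genes had a log2 fold change below 0, with a median of −0.16. None had p at or below 0.05 in edgeR or in DESeq2's Wald test. With voomWithQualityWeights there were 3 lower calls (background 3.78%), or 4 with surrogate variables (background 6.31%). In edgeR 7 of the 9 were below 0 without Postn-/- replicate 2 or without wt replicate 3, and 1 call was made without Postn-/- replicate 2 and 1 without wt replicate 2. The smallest p belonged to Tnpo3, at 129.6, 125 and 125 CPM in Postn-/-, against 155, 141 and 143 CPM in wt (log2 fold change of −0.21, unadjusted p = 0.0543 in edgeR). Prpf4b, a kinase of the spliceosome, followed with a log2 fold change of −0.26 (unadjusted p = 0.0650 in edgeR). Of the 13 early spliceosome partners, 9 were below 0 with a median of −0.16, and U2af1l4, which encodes a small subunit of U2AF, was the only gene past the unadjusted threshold in edgeR (log2 fold change of −0.26, unadjusted p = 0.0371). DESeq2's Wald test gave no call in this list and voomWithQualityWeights gave 3 lower calls (background 3.78%). With surrogate variables it gave 5 lower and 1 higher (background 6.31% and 7.43%). Without wt replicate 2 the median was −0.034, with 7 of 13 genes below 0 and 2 calls in each direction in edgeR, where 3.45% of all genes were called lower and 5.26% higher, and without any other 1 library there was no call in this list.

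The hnRNP proteins bind silencer sequences and often oppose SR proteins. Of the 26 tested, 21 had a log2 fold change below 0, with a median of −0.13 (−0.073 without Postn-/- replicate 3). None of these had p at or below 0.05 in edgeR, against 1 in DESeq2's Wald test (background 2.7%), 2 in voomWithQualityWeights (3.78%) and 1 in edgeR without Postn-/- replicate 1 (2.02%). Hnrnpll, a regulator of exon skipping in lymphocytes, was instead higher, at 23.4, 22.0 and 22.1 CPM in Postn-/-, against 13.5, 19.8 and 17.4 CPM in wt (log2 fold change of 0.41, unadjusted p = 0.0320 and adjusted p = 0.717 in edgeR), where 3.95% of all genes tested were called higher. The higher calls of this list numbered 2 without wt replicate 2 and 0 without any other 1 library. Of the 10 mRNA export partners, 9 were below 0 with a median of −0.10 and none had p at or below 0.05 in edgeR or in DESeq2's Wald test. There was 1 lower call in voomWithQualityWeights (background 3.78%) and 2 in edgeR without Postn-/- replicate 2 (3.81%). Ddx39b, the helicase of the export complex, was lowest in p (log2 fold change of −0.26, unadjusted p = 0.0578 in edgeR), followed by Alyref (log2 fold change of −0.28, unadjusted p = 0.139). The 10 nonsense-mediated decay factors had a median of 0.10, with 4 of them below 0 and none past the unadjusted threshold in edgeR or DESeq2's Wald test. In voomWithQualityWeights 1 was called higher in Postn-/- without surrogate variables (background 5.42%) and 2 with them (7.43%). Without wt replicate 1 the median of these factors was 0.0014, with 5 of 10 below 0, without Postn-/- replicate 2 it was 0.065, and without wt replicate 2 it was 0.17, with 1 higher call in edgeR. Smg8 and Upf3a came nearest with log2 fold changes of 0.37 and 0.27 (unadjusted p = 0.0520 and 0.0605 in edgeR). Gene counts do not separate productive transcripts from those with a premature stop.

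**Figure D5:**
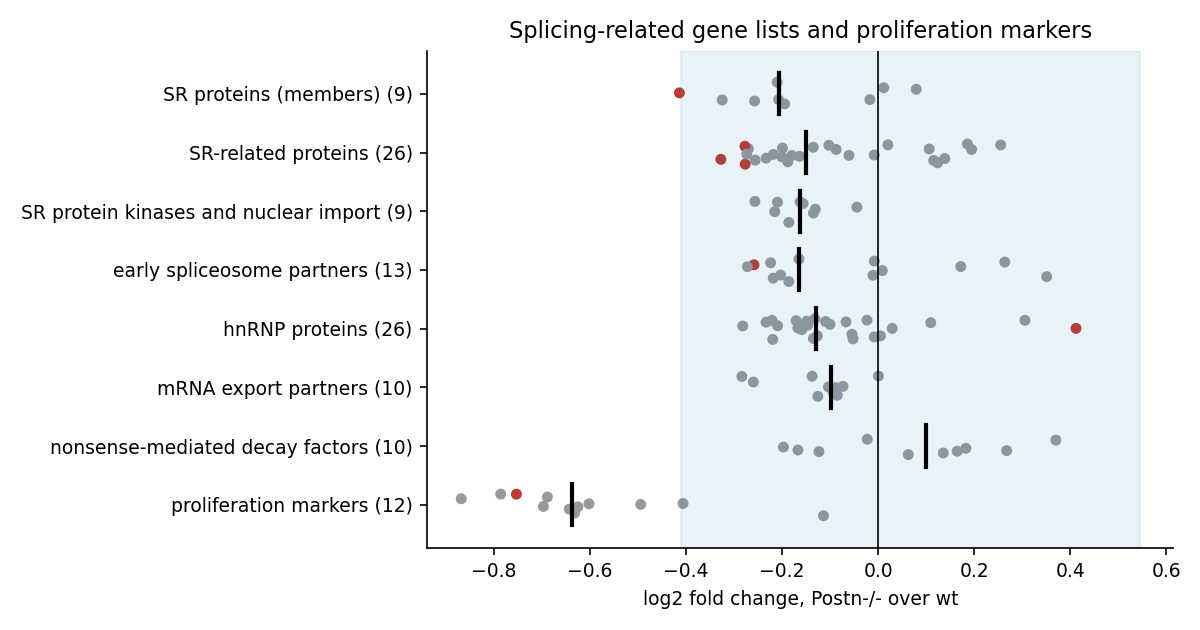
Log2 fold change, Postn-/- over wt (horizontal axis), of each tested gene of 8 lists, with the number tested in brackets, black bars for the median of a list and red points for p at or below 0.05 in edgeR; the shaded band runs from the 5th to the 95th percentile of all genes tested, −0.41 to 0.54. Medians of 6 lists lie between −0.21 and −0.10, that of the nonsense-mediated decay factors lies at 0.10 and that of the proliferation markers at −0.64.

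Proliferation markers were examined in the same libraries. All 12 tested had a log2 fold change below 0, with a median of −0.64, and Ccnb1 was the only gene of the 12 with p at or below 0.05 in edgeR (log2 fold change of −0.75, unadjusted p = 0.0467; background 2.35%). DESeq2's Wald test gave 5 lower calls (background 2.7%) and voomWithQualityWeights 3 (3.78%), or 11 with surrogate variables (6.31%). In edgeR there were 9 without Postn-/- replicate 2, where 3.81% of all genes were called lower, 4 without wt replicate 2 (3.45% of all genes) and none without any other 1 library. With all libraries, edgeR made no call under upper quartile normalization, library size only, the robust fit or more than 1 CPM in all 6 libraries. Without a filter beyond a count above 0 it called 9 of the 12 lower, and 757 of 34295 genes in all. The summed level of the 12 markers was 534, 939 and 428 CPM in Postn-/- and 1489, 681 and 748 CPM in wt. The genotypes overlapped, with wt replicate 1 highest, and this library also held the highest Srsf10, Srsf7, Srsf3 and Srsf2. The same library held the lowest Srsf6, and Srsf4, Srsf5, Srsf9 and Srsf11 were each highest in another library. Without wt replicate 1 the median of the proliferation markers was −0.29, with 10 of 12 below 0, and the log2 fold change of Srsf10 was −0.36 (unadjusted p = 0.0179 and adjusted p = 0.833 in edgeR), and without Postn-/- replicate 2 they were −1.10 and −0.39. Without Postn-/- replicate 3 the median of the proliferation markers was −0.40. Among the Postn-/- libraries, replicate 2 had the highest sum of proliferation markers, while its Srsf10 was close to that of replicate 3. Of the 10 chondrocyte markers, 6 had a log2 fold change above 0 and 4 below, with a median of 0.11. It was −0.052 without wt replicate 1, −0.0028 without Postn-/- replicate 3, 0.048 without Postn-/- replicate 1, 0.26 without Postn-/- replicate 2, 0.19 without wt replicate 2 and 0.18 without wt replicate 3. Col2a1, the main cartilage collagen, was the only one with p at or below 0.05 in edgeR and was higher in Postn-/- (log2 fold change of 0.68, unadjusted p = 0.0125 and adjusted p = 0.717). Without wt replicate 3 its unadjusted p was 0.0522 in edgeR, and voomWithQualityWeights with surrogate variables gave 2 lower calls in this list beside 1 higher (background 6.31% and 7.43%). Of the skeletal muscle markers 2 of 4 were tested, and their sum was 4.70 to 7.62 CPM in Postn-/-, against 6.84 to 18.1 CPM in wt. Acta1, the skeletal muscle actin, was at 2.77, 4.51 and 4.43 CPM in Postn-/-, against 4.96, 15.9 and 8.15 CPM in wt, without overlap (log2 fold change of −1.30, SE 0.42, unadjusted p = 0.0152 and adjusted p = 0.717 in edgeR). It was −1.11 without Postn-/- replicate 1 (unadjusted p = 0.0541 in edgeR) and −0.74 without wt replicate 2 (unadjusted p = 0.0533 in edgeR). Myh4, the other of the 2 tested, had a log2 fold change of 0.00066 (unadjusted p = 0.998 in edgeR). Macrophage and osteoclast markers summed to 49.8 to 70.8 CPM in Postn-/-, against 38.3 to 54.4 CPM in wt, and 4 of the 5 tested had a log2 fold change above 0 with a median of 0.40, none with p at or below 0.05 in edgeR. There was 1 higher call with surrogate variables in voomWithQualityWeights (background 7.43%), 1 in edgeR without wt replicate 1 (3.49%) and 1 without wt replicate 3 (3.82%). With 1 library left out the median ran from 0.22 (without wt replicate 2) to 0.53 (without wt replicate 3). Endothelial markers summed to 6.15 to 9.34 CPM in Postn-/-, against 4.73 to 8.72 CPM in wt. The 3 of them tested had log2 fold changes above 0 in edgeR, but 2 of 3 were below 0 without Postn-/- replicate 3, and the median of 0.19 ran from −0.062 without that library to 0.52 without wt replicate 3. The medians of the fibroblast and osteoblast markers were 0.16 and 0.079 with all libraries. With 1 library left out, that of the fibroblast markers ran from 0.0029 (without Postn-/- replicate 2) to 0.42 (without wt replicate 1), and that of the osteoblast markers from −0.087 (without Postn-/- replicate 3) to 0.39 (without wt replicate 2). In edgeR with all libraries these 3 lists had no gene with p at or below 0.05, and 1 fibroblast marker was called higher without Postn-/- replicate 3. The part of proliferation or of the mix of cells in the values of the SR protein genes was not tested.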

How the data were processed

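RNA-seq libraries of chondrocytes from 3 Postn-/- and 3 wt mice were used, with groups taken from the sample labels. Reads were single-end and 50 bases long. Alignment by the authors used STAR 2.0.4b with Ensembl release 76, and featureCounts 1.4.5 assigned each unique and unambiguous read to a gene. The deposited counts are thus raw. Beside them the authors deposited CPM (the count scaled to the library total) and RPKM (CPM per kilobase of exon), which did not enter the tests; the deposited RPKM served as an alternative for shares. The submitters' processing notes name another build, but coordinates were matched to GENCODE M21 (GRCm38): 40340 of 41388 identifiers matched (97.5%), and 76.1% of these had the same start and end. Genes above 1 CPM in at least 2 libraries were kept and 355 rRNA genes dropped, so that 14533 were tested. The test was that of edgeR 4.0.16 in R 4.3.3 (TMM, quasi-likelihood test, no covariates, Benjamini-Hochberg adjustment), Postn-/- against wt; 95% confidence intervals used the fit's degrees of freedom. The fit's common biological coefficient of variation came to 0.208.

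Alternatives used DESeq2 1.42.0, limma 3.58.1, sva 3.50.0 (2 surrogate variables), other scalings and filters, the replicate number as a block, and each library left out in turn. Library pairs had a chi-square per degree of freedom of 27.1 to 83.3, so none was a repeat. Correlations used log2 CPM with a prior count of 2. Genes named were all members, Postn, Srsf12, in each list those with an unadjusted p of at most 0.05 (at most 4) or else the 2 with the smallest p, and the 5 genes most like Srsf10. Of the cell type marker lists, only Col2a1, Acta1 and Myh4 are given with a test, and Hba-a2, Cdh5 and Tek by level. Akap1, Dynll2, Msi2 and Scpep1 were chosen after their values were seen. The members and lists were chosen with earlier results of these data known. Real-time PCR and other experiments were not analysed here.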

Additional observations from a re-analysis of the deposited data

How the results depend on the processing

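Srsf10 kept its direction under all 16 alternatives, with log2 fold changes from −0.49 to −0.36, unadjusted p from 0.00229 to 0.0266 and adjusted p from 0.238 to 0.983. With the replicate number as a block it was −0.41 (unadjusted p = 0.00517 and adjusted p = 0.603 from edgeR), and 1 member had an unadjusted p of at most 0.05, as without the block. Same-numbered libraries had correlations of 0.0824, 0.155 and 0.143 between their deviations, and each library correlated best with its own number. Between different numbers the correlations ran from −0.13 to 0.014. The labels do not say if the numbers pair the samples, and with 3 libraries per genotype these values cannot decide it. Members with an unadjusted p of at most 0.05 numbered 2 with voomWithQualityWeights, with and without surrogate variables (Srsf10 and Srsf7), and 2 without a filter (Srsf10 and Srsf1, which then had 10 reads in all), and 1 to 3 when 1 library was left out. Without Postn-/- replicate 1 they were Srsf10, Srsf2 and Srsf3. Members without overlap numbered 2 to 4 when 1 library was left out, where 19.3% to 27.2% of all genes did not overlap in either direction. The 4 without wt replicate 3 include Srsf4, which was then higher in Postn-/-. Members with small differences changed sign: Srsf4 was at −0.043 with voomWithQualityWeights and at −0.060 to 0.37 with 1 library left out, Srsf6 at −0.0058 without a filter, −0.11 with voomWithQualityWeights and −0.24 to 0.22 with 1 library left out, and Srsf11 at −0.079 to 0.027 with 1 library left out; the causes were not tested. The wt share of Srsf10 among the members that could be counted was 4.97% per kilobase and 10.01% from CPM, since long genes weigh more there. Srsf4 and Srsf12 had few reads, 33 to 54 and 67 to 129 per library, and the part of depth in their wide intervals was not tested.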
